A study of Mus musculus with 8 samples.

Results

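RNA of 9 genes of glucose metabolism, Pck1, G6pc, Fbp1, Pcx, Gckr, Pklr, Pfkfb1, Pfkfb3 and Slc2a2, was followed in whole liver, and glucose output and use were not measured here. The genes were chosen by name for their place in gluconeogenesis, glycolysis or glucose transport, with earlier results of these data known. They are 9 of the 49585 genes with read counts in 8 mouse livers, and all 9 were among the 16496 genes that passed a filter on low counts and were tested. The livers came from males of 3 genotypes, fed from day 21 of life for 3 months on a high-fat diet deficient in choline (HFCD), which loads the liver with lipid. In the 3 LP245/+ mice (Alb-CreTG, Trp53wm-R245W/+), Alb-Cre converts 1 allele from wild-type p53 to the missense protein p53R245W and leaves the other allele wild type. In the 2 LPfl/+ mice (Alb-CreTG, Trp53fl/+), the same recombinase deletes 1 allele. The 3 LP+/+ mice serve as the p53 wild-type group. Their labels read Alb-Cre0, with an unrecombined Trp53fl/+ genotype in replicates 1 and 2 and an unrecombined Trp53wm-R245W/+ genotype in replicate 3, whereas the study's results define this group as Cre carriers and its methods allow controls with or without Cre, so an effect of the Cre transgene itself cannot be told apart from that of the alleles. The albumin promoter limits Cre to hepatocytes and bile duct cells, so RNA of stromal, endothelial and immune cells in these samples comes from cells without the recombined allele.

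The liver keeps blood glucose steady by making glucose between meals and by storing or burning it after meals. In gluconeogenesis, pyruvate is carboxylated to oxaloacetate, turned into phosphoenolpyruvate, carried up the pathway to fructose 6-phosphate and at last freed of its phosphate, and each of these irreversible steps has an enzyme that glycolysis does not use. Glucagon and glucocorticoids raise transcription of several of these enzymes, insulin lowers it, and the level of fructose 2,6-bisphosphate, which the PFKFB enzymes make and remove, tilts the cell towards glycolysis or glucose output.

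Bulk RNA does not tell fewer hepatocytes from less RNA per hepatocyte. Library totals lay between 26304526 and 31370714 counts. Levels are CPM, the counts of a gene relative to the library total after scaling by TMM factors. P-values come from the quasi-likelihood test of edgeR with Benjamini-Hochberg adjustment over all 16496 genes, and a gene was called where the adjusted p was at most 0.05 and the groups differed by at least 1 on the log2 scale. Trp53 had between 7.11 and 9.06 CPM in LP+/+, 4.48 and 6.28 CPM in LPfl/+, and between 6.80 and 11.2 CPM in LP245/+ livers, and these counts do not separate the alleles. The 7 hepatocyte markers found, of 8 sought, summed to between 109757 and 155821 CPM in LP+/+, between 109885 and 115971 CPM in LPfl/+ and between 113465 and 132640 CPM in LP245/+ livers, and 0 of the 7 had an unadjusted p under 0.05 in any comparison. Kupffer cell and macrophage markers summed to between 232.5 and 376.6 CPM over all livers, cholangiocyte markers to between 23.4 and 40.4 CPM, lymphocyte markers to between 1.94 and 2.68 CPM, exocrine pancreas markers to between 20.7 and 36.5 CPM and adipocyte markers to between 2.75 and 6.80 CPM. Prss2 of the pancreas list, Lep of the adipocyte list and Ly6g of the neutrophil list were at 0 in all 8. The 4 neutrophil markers summed to 4.53 and 4.87 CPM in LPfl/+, between 3.57 and 4.11 CPM in LP+/+ and between 3.20 and 3.86 CPM in LP245/+ livers, and 1 of the 3 tested had an unadjusted p under 0.05 in each comparison with LPfl/+. Erythroid markers summed to between 489.1 and 682.6 CPM in LP+/+ and to 345.4 and 449.7 CPM in LPfl/+ livers. In LP245/+ livers they summed to between 323.8 and 643.3 CPM. Against LP+/+, 3 of 5 had an unadjusted p under 0.05 in LPfl/+ and 1 of 5 in LP245/+. Endothelial markers summed to 305.3 and 394.1 CPM in LPfl/+ and to between 415.5 and 454.7 CPM in LP245/+ livers. In LP+/+ their sum lay between 363.4 and 466.7 CPM, and 0 of 6 had such a p in any comparison. Between LP245/+ and LPfl/+, 2 of 6 Kupffer cell and 1 of 6 stellate cell markers had one. Of all genes, 5.93% had one in LP245/+ and 6.89% in LPfl/+ against LP+/+, and 8.51% between LP245/+ and LPfl/+. The part of these cells in the results was not tested. Library numbers in the labels fall into 2 series. The first holds the 3 LP245/+ livers with LP+/+ replicates 2 and 3, and the second holds LP+/+ replicate 1 with both LPfl/+ livers. Each comparison with LP+/+ can therefore be repeated within a series, whereas LP245/+ and LPfl/+ share none, and for that pair series and genotype cannot be told apart. Nothing in the labels says which livers shared a cage, a litter or a day.

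The members span a wide range of levels. Per kilobase of exon, which allows genes of different length to be compared, Pck1 averaged 612.8 CPM per kilobase over the 8 livers and Fbp1 585.1. G6pc followed at 239.2 CPM per kilobase, then Pcx at 118.4, Slc2a2 at 82.4, Pklr at 68.4 and Gckr at 44.2. The regulators came last, Pfkfb1 at 8.65 and Pfkfb3 at 1.39 CPM per kilobase. Gene by gene the order held in 8 of 8 livers between most neighbours. The exceptions were Pck1 over Fbp1, which held in 5 of 8 livers, and Slc2a2 over Pklr, which held in 6 of 8. The order of all 9 was unchanged with the length of the longest transcript in place of the union of exons.

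Pck1 encodes the cytosolic phosphoenolpyruvate carboxykinase, the classic transcriptional control point of gluconeogenesis. Its level was 2013, 2490 and 2554 CPM in LP+/+ livers, 2451 and 811.7 CPM in LPfl/+ livers and 1868, 1827 and 2796 CPM in LP245/+ livers. LPfl/+ replicate 2 stood far below the other 7 livers, which overlapped across genotypes. G6pc, the catalytic subunit of glucose-6-phosphatase, which releases free glucose, had 1151, 436.4 and 610.7 CPM in LP+/+ livers, 905.2 and 453.7 CPM in LPfl/+ livers and 314.8, 439.0 and 308.3 CPM in LP245/+ livers. The 3 LP245/+ livers lay below both LPfl/+ livers, while LP245/+ replicate 2 was just above LP+/+ replicate 2.

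The promoter windows of both genes are shown because these 2 genes varied most within genotypes and share hormone control. The stretches are RefSeq sequence of GRCm38.p6, read 5′ to 3′ on the strand of the gene, from chr2:173152823-173153047 on the plus strand for Pck1 and chr11:101367466-101367560 on the plus strand for G6pc. They end before the first base of either the RefSeq or the GENCODE gene model. Capitals mark the core of the cAMP response element (TGACG, or CGTCA on the other strand) in Pck1 and the core letters of the insulin response sequence (TGTTTTG) in G6pc.
Pck1: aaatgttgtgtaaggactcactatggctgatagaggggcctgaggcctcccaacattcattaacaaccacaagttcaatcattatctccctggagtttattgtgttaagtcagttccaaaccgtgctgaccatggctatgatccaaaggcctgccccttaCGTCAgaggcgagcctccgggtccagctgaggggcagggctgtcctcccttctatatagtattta
G6pc: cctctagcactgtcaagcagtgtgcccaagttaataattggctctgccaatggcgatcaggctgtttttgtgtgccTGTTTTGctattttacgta

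To set these in context, 6 motifs were searched on both strands in windows from 250 bases before to 50 after a RefSeq start. These were the E-box CACGTG, the D-box TTATGTAA, the cAMP core TGACG, the insulin response core TGTTTTG, the FoxO site GTAAACA and the paired core letters of p53 response elements. Of the 32544 distinct windows of the genome, 20.9% held TGACG and 6.32% held TGTTTTG, against 7.17% with the E-box, 0.931% with the D-box, 3.66% with the FoxO site and 0.624% with the p53 letters. In the members, TGACG began 90 bases before the RefSeq start of Pck1, TGTTTTG 174 bases before that of G6pc and 83 bases before that of Gckr, and an E-box 248 bases before that of Pcx. The windows of Fbp1, Pklr and Slc2a2 held none of the 6, and a match is a run of letters, not evidence that a factor binds.

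The comparison of genotypes asked whether the missense allele or the loss of an allele altered these genes. For Pck1, the log2 fold change of LP245/+ against LP+/+ was -0.12 (standard error 0.34, edgeR adjusted p = 0.971), and within the first series by -0.22. LPfl/+ differed from LP+/+ by -0.53 (standard error 0.38, edgeR adjusted p = 0.81) and within the second series by -0.30. That value belonged to 1 liver. With LPfl/+ replicate 1 left out, so that replicate 2 alone stood for the genotype, the log2 fold change was -1.55 (edgeR adjusted p = 0.416, with that liver assumed to vary like those of the other genotypes), and with replicate 2 left out it was 0.04. The difference between LP245/+ and LPfl/+ was 0.41 (standard error 0.38, edgeR adjusted p = 0.813) and moved between -0.17 and 1.42 when single livers were left out, at both ends by leaving out an LPfl/+ liver.

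Of the fitted differences between genotypes, the largest on the log2 scale among the 9 genes was that of G6pc. Its mean was 354.0 ± 73.6 CPM in LP245/+ (SD, n = 3) against 732.6 ± 372.5 CPM in LP+/+ (SD, n = 3), a log2 fold change of -1.05 or 2.07-fold lower (95% interval -1.85 to -0.25, unadjusted p = 0.0154 and adjusted p = 0.795 from edgeR). LP+/+ replicate 1 carried much of that difference. Without it, or within the first series, the log2 fold change was -0.56. Against LPfl/+ livers, at 679.4 ± 319.3 CPM (SD, n = 2), the log2 fold change of LP245/+ was -0.94 (95% interval -1.81 to -0.07, unadjusted p = 0.0375 and adjusted p = 0.551 from edgeR). Without LPfl/+ replicate 1 it was -0.36 (unadjusted p = 0.434 from edgeR), and DESeq2 gave an unadjusted p of 0.0765 with all livers. LPfl/+ and LP+/+ differed by -0.11 (standard error 0.40, edgeR adjusted p = 0.967). That comparison moved with the choice of livers, to -0.76 within the second series, where LP+/+ replicate 1 is the only control, and to 0.79 with LP+/+ replicate 1 and LPfl/+ replicate 2 both left out. With those 2 livers left out, a choice made after their values were seen, LP245/+ against LPfl/+ was -1.37 (edgeR adjusted p = 0.0396). A single LPfl/+ liver remained there and was assumed to vary like the other genotypes. With the series as a covariate the same comparison was 0.20, resting on LP+/+ livers as the only link between the series.

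Fbp1, fructose-1,6-bisphosphatase, and Pcx, the pyruvate carboxylase of mitochondria, catalyse the other steps of gluconeogenesis that bypass glycolysis. Fbp1 had 952.6, 1276 and 1036 CPM in LP+/+, 1029 and 765.7 CPM in LPfl/+ and 826.4, 1072 and 1009 CPM in LP245/+ livers. The genotypes overlapped, with the lowest value in LPfl/+ replicate 2, and the log2 fold changes were -0.17 for LP245/+ and -0.28 for LPfl/+ against LP+/+ (adjusted p = 0.896 and 0.792 from edgeR). Pcx had 553.4, 557.5 and 584.1 CPM in LP+/+, 599.5 and 494.7 CPM in LPfl/+ and 549.1, 649.3 and 512.9 CPM in LP245/+ livers. All genotypes overlapped here too, and the 95% interval of the log2 fold change ran from -0.27 to 0.30 for LP245/+ and from -0.37 to 0.27 for LPfl/+ against LP+/+.

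**Figure D1:**
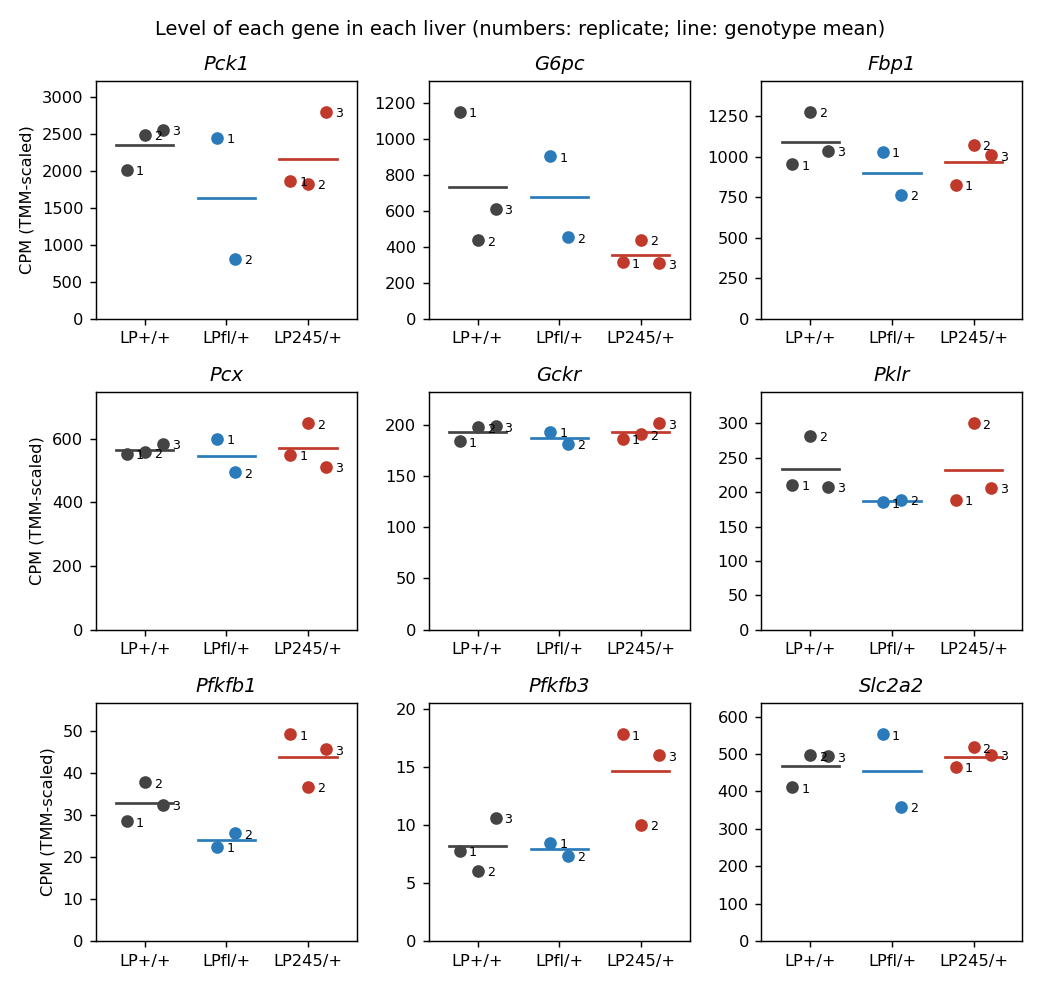
Level of each of the 9 genes in each liver, in TMM-scaled CPM on linear axes that start at 0, with a panel for each gene. Points are livers numbered by replicate and lines are genotype means. LPfl/+ replicate 2 lies alone at 811.7 CPM for Pck1, LP245/+ replicates 1 and 3 are the lowest livers for G6pc and the highest for Pfkfb1 and Pfkfb3 while replicate 2 lies among the LP+/+ livers, and Gckr is nearly flat.

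Glucose enters and leaves hepatocytes through Slc2a2, the low-affinity transporter GLUT2, and Gckr encodes a regulatory protein that restrains glucose use when glucose is low. Gckr was the steadiest of the 9 genes. Its level was 183.8, 197.5 and 198.2 CPM in LP+/+, 192.9 and 181.4 CPM in LPfl/+ and 186.2, 190.4 and 201.4 CPM in LP245/+ livers. The highest liver exceeded the lowest by 1.11-fold. The SD within genotypes was 0.06 on the log2 scale, and 4.54% of the 7627 genes with a mean of at least 10 CPM had a smaller one. The 95% interval of the log2 fold change was -0.22 to 0.21 for LP245/+ and -0.29 to 0.20 for LPfl/+ against LP+/+, and -0.20 to 0.28 between LP245/+ and LPfl/+. A log2 difference of 1 lay outside all of these intervals, and these livers do not separate differences inside them from no difference.

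Slc2a2 stood at 410.6, 496.8 and 493.4 CPM in LP+/+, 552.8 and 358.6 CPM in LPfl/+ and 465.2, 517.6 and 497.3 CPM in LP245/+ livers. The 2 LPfl/+ livers were the highest and the lowest of all 8, and the log2 fold changes were 0.08 for LP245/+ and -0.04 for LPfl/+ against LP+/+ (adjusted p = 0.959 and 0.977 from edgeR). Pklr encodes the liver form of pyruvate kinase, the last step of glycolysis, which carbohydrate feeding raises. It had 210.5, 281.8 and 207.7 CPM in LP+/+, 185.5 and 189.0 CPM in LPfl/+ and 188.5, 300.2 and 206.6 CPM in LP245/+ livers. Replicate 2 was the high liver in both larger groups. Both LPfl/+ livers were below every LP+/+ liver, with a log2 fold change of -0.32 (standard error 0.21, edgeR adjusted p = 0.792), -0.17 within the second series, and LP245/+ differed from LP+/+ by -0.01 (standard error 0.19). Exons of Pklr share 711 bases with Hcn3 on the opposite strand. The strand that was counted is not given in the sources used here, so reads of that stretch may belong to either gene, and Hcn3 itself had between 8.08 and 16.2 CPM.

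Pfkfb1 and Pfkfb3 encode 6-phosphofructo-2-kinase/fructose-2,6-bisphosphatases, enzymes with opposing activities that set fructose 2,6-bisphosphate. Pfkfb1 is the form typical of liver, and Pfkfb3 is a form of high kinase activity that growth and low oxygen induce in many cells. Both had their highest mean in LP245/+ livers, at levels far under those of the other members. Pfkfb1 had 28.5, 37.8 and 32.4 CPM in LP+/+, 22.4 and 25.6 CPM in LPfl/+ and 49.2, 36.7 and 45.6 CPM in LP245/+ livers. The LPfl/+ livers lay below all others, and the LP245/+ livers lay above every LP+/+ liver with 1 exception, LP245/+ replicate 2, which was just under LP+/+ replicate 2. Pfkfb3 had 7.78, 6.06 and 10.6 CPM in LP+/+, 8.45 and 7.32 CPM in LPfl/+ and 17.8, 10 and 16 CPM in LP245/+ livers, from 180 to 484 counts. LP245/+ replicates 1 and 3 stood above the rest, and replicate 2 lay just under LP+/+ replicate 3.

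Their promoter sequences are shown because these 2 genes were the members higher in LP245/+ at an unadjusted p under 0.05. RefSeq gives 4 starts for Pfkfb1 and 2 for Pfkfb3, and the ones nearest the GENCODE start were taken. The Pfkfb1 stretch is chrX:150587993-150588228 on the plus strand of GRCm38.p6, upstream of both gene models, and it holds none of the 6 motifs, as do the windows of its other starts. For Pfkfb3 on the minus strand, 30 bases around each TGACG, marked in capitals, are given from chr2:11554024-11554053 and chr2:11553974-11554003. These begin 112 and 62 bases before the RefSeq start, and the GENCODE model starts 148 bases before it, so both lie inside that model. The window of the other Pfkfb3 start, chr2:11502041-11502340, held 1 E-box and 1 TGACG.
Pfkfb1: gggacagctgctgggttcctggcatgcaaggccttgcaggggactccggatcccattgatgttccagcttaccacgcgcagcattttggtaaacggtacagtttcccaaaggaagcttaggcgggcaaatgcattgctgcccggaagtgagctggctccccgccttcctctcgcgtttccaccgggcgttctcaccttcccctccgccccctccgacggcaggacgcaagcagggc
Pfkfb3, first site: agagctcacgggTGACGcgactcccgcgct
Pfkfb3, second site: tcctccgcgccgTGACGtgccaagctgtga

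Mean Pfkfb1 was 43.8 ± 6.46 CPM in LP245/+ (SD, n = 3), 32.9 ± 4.65 CPM in LP+/+ (SD, n = 3) and 24.0 ± 2.22 CPM in LPfl/+ (SD, n = 2). LP245/+ exceeded LPfl/+ by a log2 fold change of 0.87, or 1.83-fold (95% interval 0.51 to 1.22, unadjusted p = 0.000305 from edgeR), a p that ranked 8 from the smallest among all 16496 genes. It did not pass the test, with an adjusted p of 0.362 from edgeR. The log2 fold change against LP+/+ was 0.41 for LP245/+ (standard error 0.14, adjusted p = 0.795) and -0.46 for LPfl/+ (standard error 0.16, adjusted p = 0.697, both from edgeR), and within a series these were 0.32 and -0.25. Over all 3 genotypes together, edgeR gave an adjusted p of 0.574, and 10 of the 560 arrangements of the livers gave as large an F ratio (exact permutation p = 0.0179, where 0.00357 is the smallest that design can give). DESeq2 put the adjusted p at 0.00172 for LP245/+ against LPfl/+ and at 0.00626 for the 3 genotypes, and without the filter on low counts edgeR gave 0.00279 and 0.00791. With the series as a covariate, the log2 fold change of LP245/+ against LPfl/+ was 0.57 (edgeR adjusted p = 0.906). The 3 genotypes then gave an adjusted p of 0.836 from edgeR. LP245/+ and LPfl/+ share no series, so that fit links them only through LP+/+ livers. Exons of Pfkfb1 share 123 bases with Apex2 on the opposite strand. Apex2 had between 6.76 and 11.3 CPM, and its log2 fold change was 0.45 for LP245/+ against LPfl/+, so part of the Pfkfb1 counts is uncertain.

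Pfkfb3 averaged 14.6 ± 4.07 CPM in LP245/+ (SD, n = 3), 8.14 ± 2.29 CPM in LP+/+ (SD, n = 3) and 7.88 ± 0.80 CPM in LPfl/+ (SD, n = 2). LP245/+ was above LP+/+ by a log2 fold change of 0.84, or 1.79-fold (95% interval 0.30 to 1.39, unadjusted p = 0.00637 and adjusted p = 0.795 from edgeR). Within the first series the value was 0.81. Against LPfl/+ it was 0.89 (95% interval 0.27 to 1.51, unadjusted p = 0.00988 and adjusted p = 0.428 from edgeR), and LPfl/+ differed from LP+/+ by -0.05 (standard error 0.28). The exact permutation test over 3 genotypes gave p = 0.107. Bulk RNA does not show which cells of the liver the Pfkfb3 counts came from. In every setting tried, LP245/+ stayed above both other genotypes for Pfkfb1 and for Pfkfb3, with log2 fold changes of at least 0.31 and 0.66. The unadjusted p was not under 0.05 in all of them. For Pfkfb3 against LPfl/+ it was 0.116 from edgeR with the series as a covariate. For Pfkfb1 against LP+/+ it was 0.0689 from edgeR without LP245/+ replicate 1.

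**Figure D2:**
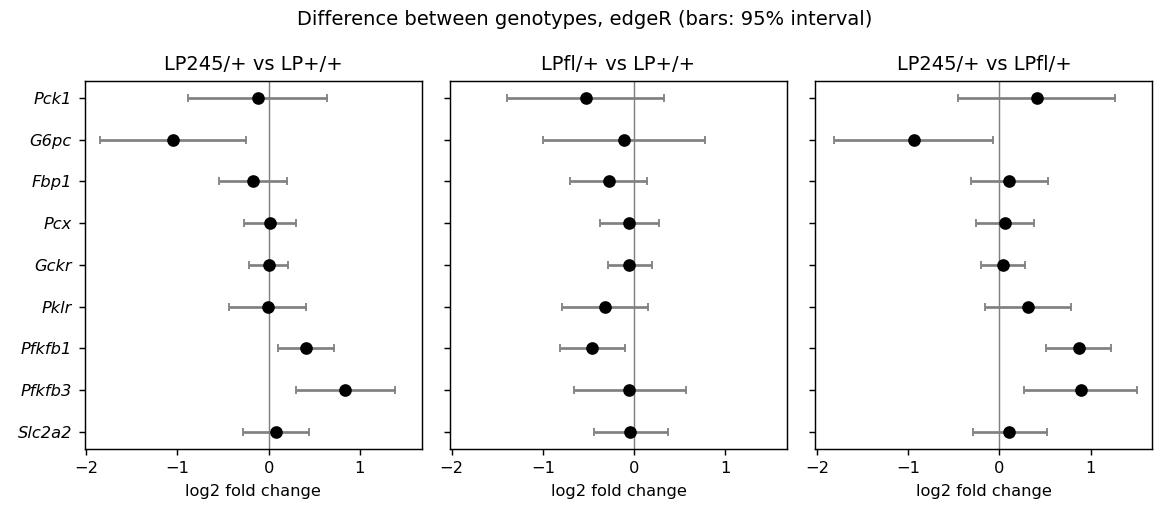
Log2 fold change of each gene in the 3 genotype comparisons, with points for the edgeR estimate and bars for the 95% interval. G6pc lies left of 0 and Pfkfb1 and Pfkfb3 right of it for LP245/+ against either genotype, and Gckr has the narrowest interval in each comparison.

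Over the 9 genes, none passed the cutoff in any comparison, against 0.00606% of all genes tested for LP245/+ against LP+/+ and 0% for each of the other two. At an unadjusted p under 0.05 from edgeR, 3 of 9 differed between LP245/+ and LP+/+ (Pfkfb1 and Pfkfb3 higher, G6pc lower), against 5.93% of all genes. In LPfl/+ against LP+/+, 1 of 9 did (Pfkfb1, lower), against 6.89% of all genes. Without LP245/+ replicate 1 the first count was 1 of 9, and without LP+/+ replicate 2 the second was 0 of 9. Between LP245/+ and LPfl/+ it was 3 of 9, again Pfkfb1 and Pfkfb3 higher and G6pc lower, against 8.51%. The livers of LP245/+ and LP+/+ overlapped for all 9 genes, where 11.6% of all genes did not overlap. LPfl/+ and LP+/+ did not overlap for 2 of 9 (Pklr and Pfkfb1) against 24.9%, and LP245/+ and LPfl/+ for 3 of 9 (G6pc, Pfkfb1 and Pfkfb3) against 25.4%. The comparisons share livers and are not independent of each other. The 9 genes were chosen with earlier results of these data known, so these counts are no test against the shares of all genes. The median log2 fold change of the 9 was -0.00, -0.11 and 0.11 in these comparisons, where the median of all genes was 0.00, -0.00 and 0.00. In LPfl/+ against LP+/+, 9 of 9 were lower with TMM scaling and 5 of 9 with library totals in its place. For the 3 genotypes together 0 of 9 passed an adjusted p of 0.05 from edgeR, as did 0% of all genes, and 7.79% of all genes had an unadjusted p under 0.05. An exact permutation test between 2 genotypes cannot give a p under 0.1 in these groups.

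Spread within genotypes differed widely among the members. Pck1 and G6pc had an SD within genotypes of 0.56 and 0.58 on the log2 scale, more than 98.2% and 98.4% of the genes at 10 CPM or above. Pfkfb3 followed at 0.38, above 95.3% of genes, then Pklr at 0.27, Fbp1 and Slc2a2 at 0.23, Pfkfb1 at 0.20 and Pcx at 0.14.

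The genes whose profile over the 8 livers lay closest to each member were sought among 11677 protein-coding genes with a mean of at least 1 CPM, by the root mean square difference of centred log2 CPM. Closest to Pck1 were Klf15 (0.16) and Tsc22d3 (0.22), both known glucocorticoid-responsive genes. Klf15 had 144.5, 182.5 and 192.8 CPM in LP+/+, 203.1 and 76.1 CPM in LPfl/+ and 176.1, 164.1 and 198.3 CPM in LP245/+ livers, with the same liver at the bottom as for Pck1. Closest to G6pc were Nr4a1 (0.23), an immediate early nuclear receptor gene, and Il1b (0.24), a cytokine gene. Nr4a1 had 3.50, 1.28 and 1.16 CPM in LP+/+, 1.97 and 1.36 CPM in LPfl/+ and 0.881, 1.11 and 0.680 CPM in LP245/+ livers, highest in LP+/+ replicate 1 as G6pc was. Pfkfb1 lay nearest to Enpp6 (0.09) and Nfxl1 (0.11), and Pfkfb3 to Ccl9 (0.20) and Slc25a27 (0.25). The steadier members had closer neighbours, such as Arpc2 and Otub1 at 0.03 from Gckr and Gtpbp1 at 0.04 and Wwox at 0.05 from Pcx. Rpa2 and Slc5a6 were nearest to Pklr (0.08 and 0.09), Ugt1a6b and Ms4a4d to Fbp1 (0.07 and 0.08), and Lrfn4 and Fam107b to Slc2a2 (0.05 and 0.09). Likeness was measured over 8 livers of 2 series of library numbers, and it is a description of them.

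The other genes of glucose metabolism were counted in 5 lists that hold 74 genes, of which 73 passed the filter and Fbp2 did not. The lists too were chosen with earlier results of these data known. None of the 73 was called in any comparison by edgeR. At an unadjusted p under 0.05, 5 differed in LP245/+ against LP+/+ (1 higher, 4 lower), 4 in LPfl/+ against LP+/+ (1 higher, 3 lower) and 15 in LP245/+ against LPfl/+ (10 higher, 5 lower), where 5.93%, 6.89% and 8.51% of all genes did. The first 2 counts are near those shares. For the third, LP245/+ and LPfl/+ share no series of library numbers. Because the lists were chosen with results known, none of these counts is a test against the shares. In the gluconeogenesis list the counts at that p were 0, 2 and 3 of 15 genes. Slc37a4, the glucose 6-phosphate transporter that feeds G6pc, had 134.7, 161.8 and 147.7 CPM in LP+/+, 121.1 and 113.3 CPM in LPfl/+ and 161.0, 160.5 and 167.0 CPM in LP245/+ livers. It was lower in both LPfl/+ livers than in any other, with a log2 fold change of 0.47 for LP245/+ against LPfl/+ (standard error 0.12, edgeR adjusted p = 0.362). Its partner G6pc went the other way in that comparison. Got1, the cytosolic aspartate aminotransferase, had a log2 fold change of -0.80 in LPfl/+ against LP+/+ (standard error 0.22, edgeR adjusted p = 0.697).

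In the glycolysis list 2, 0 and 5 of 21 genes had an unadjusted p under 0.05 in the 3 comparisons. Gapdh, a glycolytic enzyme gene, differed by 0.61 on the log2 scale between LP245/+ and LPfl/+ (standard error 0.20, edgeR adjusted p = 0.452), and its reads may be shared with its many pseudogenes. Of the 14 glycogen genes 1, 0 and 2 had such a p, among them the phosphatase targeting subunits Ppp1r3c at -0.43 and Ppp1r3b at 0.43 in LP245/+ against LPfl/+ (adjusted p = 0.559 and 0.571 from edgeR). Of the 6 fructose and ChREBP target genes 0, 1 and 1 had, Slc2a5, a fructose transporter gene, at 0.71 in LPfl/+ against LP+/+ and Txnip, a glucose-induced gene, at 0.49 in LP245/+ against LPfl/+ (adjusted p = 0.721 and 0.544 from edgeR). Among 17 genes of hormone and transcription control 2, 1 and 4 had. Sik1, a kinase gene that cAMP induces, had 44.7, 7.71 and 9.93 CPM in LP+/+, 22.7 and 15.4 CPM in LPfl/+ and 8.59, 7 and 4.54 CPM in LP245/+ livers. Like G6pc it was highest in LP+/+ replicate 1 and low in LP245/+, with a log2 fold change of -1.63 against LP+/+ (standard error 0.59, edgeR adjusted p = 0.795). Insr, the insulin receptor gene, differed by 0.44 between LP245/+ and LPfl/+ (standard error 0.15, edgeR adjusted p = 0.486).

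**Figure D3:**
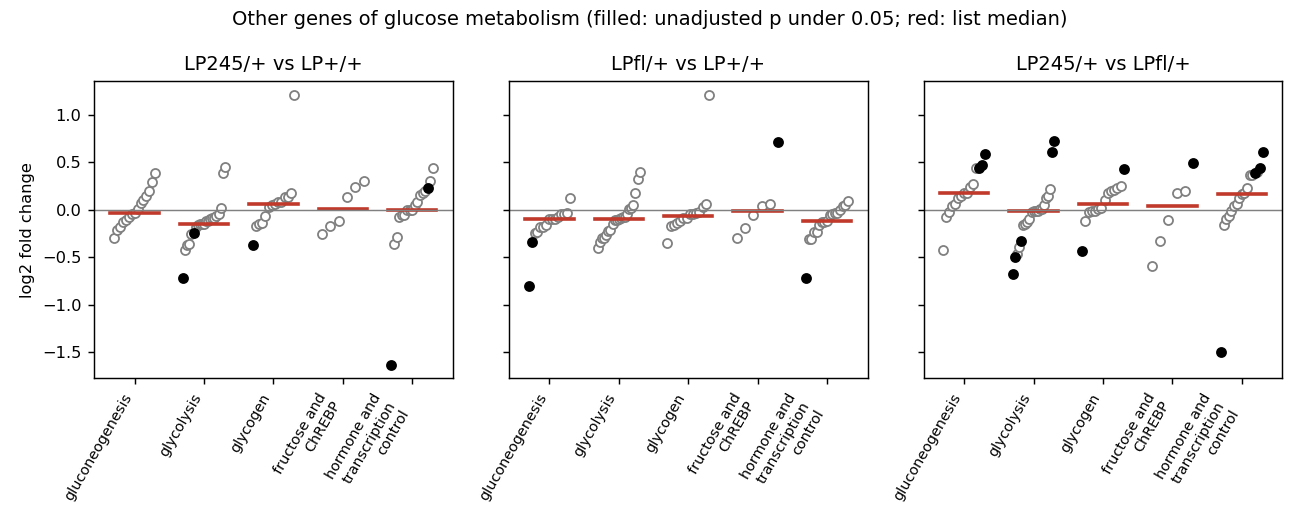
Log2 fold change of the 73 other genes of glucose metabolism in the 3 genotype comparisons, sorted within 5 lists. Filled points had an unadjusted p under 0.05 from edgeR, open points did not, and red lines are list medians, which lie between -0.15 and 0.17.

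Time of day and feeding set many of these genes in liver, and neither is given for the livers. Genes of the circadian clock were therefore set beside the members. At an unadjusted p under 0.05 from edgeR, 9 of 12 clock genes differed in LP245/+ against LP+/+ (6 higher, 3 lower), 0 of 12 in LPfl/+ against LP+/+ and 10 of 12 in LP245/+ against LPfl/+ (7 higher, 3 lower), with 0 called. Of all genes, 5.93%, 6.89% and 8.51% had such a p in these comparisons. LP245/+ and LPfl/+ share no series of library numbers. Dbp, a clock output transcription factor gene, had 0.815, 7.75 and 3.57 CPM in LP+/+, 2.29 and 1.82 CPM in LPfl/+ and 23.7, 9.48 and 18.6 CPM in LP245/+ livers. Arntl, which encodes the BMAL1 activator, ran the other way, with 37.7, 18.9 and 23.2 CPM in LP+/+, 26.8 and 29.4 CPM in LPfl/+ and 8.37, 17.7 and 12.5 CPM in LP245/+ livers. LP+/+ replicate 1, the only control of the second series, had the lowest Dbp and the highest Arntl of all livers. LP245/+ replicate 2 was the LP245/+ liver nearest to the LP+/+ mean for Dbp, Arntl, Npas2, Clock, Cry1, Nr1d2, Tef, Per3 and Ciart. Replicate 3 was the nearest for the other clock genes, Per1, Per2 and Nr1d1. LP245/+ replicate 2 was also the LP245/+ liver with the lowest Pfkfb1 and Pfkfb3 and the highest G6pc. Dbp and Arntl were picked for display after their values were seen. By the rule for named genes, Per2 and Cry1 differed by 0.54 and -0.85 in LP245/+ against LP+/+ (adjusted p = 0.795 for both from edgeR). The part of the clock in the differences of the members was not tested.

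**Figure D4:**
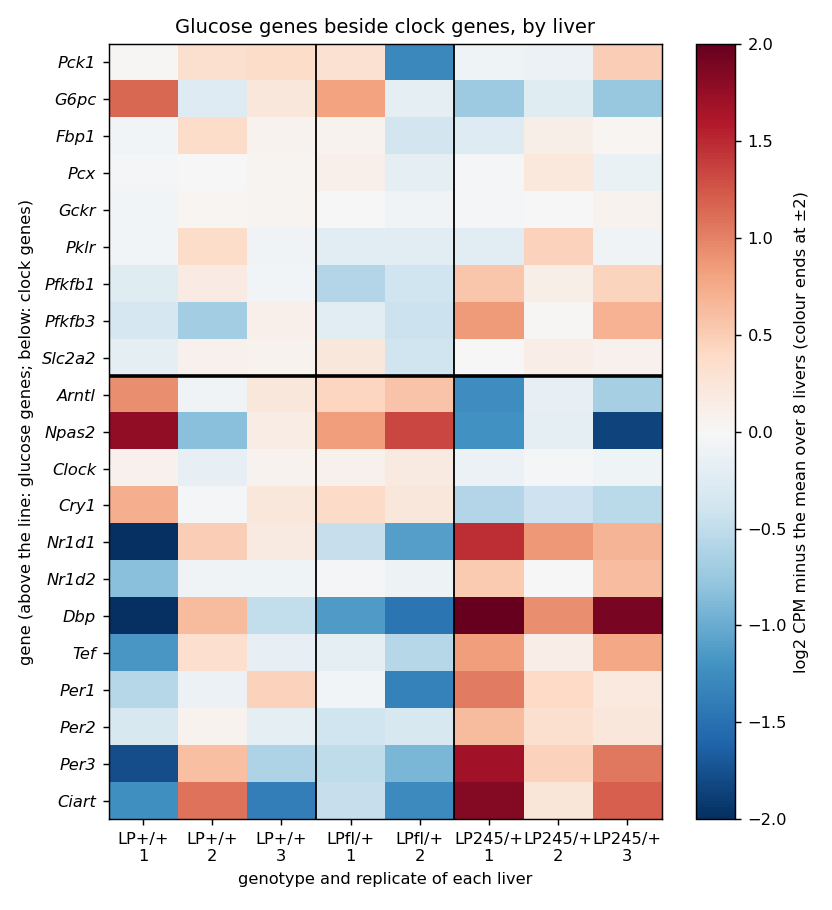
Log2 CPM of the 9 glucose genes and 12 clock genes in each liver, minus the mean of that gene over the 8 livers. Red is above and blue below the mean, with colours ending at 2 either way. Dbp, Per3 and Nr1d1 are red and Arntl, Npas2 and Cry1 blue in LP245/+ livers, where Pfkfb1 and Pfkfb3 are red or near the mean and G6pc is blue.

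Of 8 genes of the fed state, 1, 3 and 5 had an unadjusted p under 0.05 in the 3 comparisons, with a median log2 fold change of 0.08, -0.70 and 0.66. The shares of all genes at that p were 5.93%, 6.89% and 8.51%. Elovl6 of fatty acid elongation and Me1, the malic enzyme, were lower in LPfl/+ than in LP+/+ by -0.71 and -0.68 on the log2 scale (adjusted p = 0.697 for both from edgeR). Of 10 fasting genes 1, 2 and 3 had such a p, with medians of 0.04, -0.39 and 0.39. Fgf21, a hepatokine gene and the one of this list with the smallest p over the 3 genotypes (edgeR adjusted p = 0.0756), had 4.14, 4.11 and 4.43 CPM in LP+/+, 2.61 and 2.43 CPM in LPfl/+ and 8.08, 6.75 and 7.62 CPM in LP245/+ livers. Its genotype means had the same order as those of Pfkfb1. Trib1, a pseudokinase gene, was -0.41 in LPfl/+ against LP+/+ (adjusted p = 0.697 from edgeR). Gluconeogenesis is strongest around the portal vein and glycolysis around the central vein. Of 8 periportal genes 0, 2 and 0 had an unadjusted p under 0.05, and of 8 pericentral genes 0, 3 and 3. Gls2 and Ass1 of the periportal list were -0.47 and -0.43 in LPfl/+ against LP+/+, and Slc1a2 and Oat of the pericentral list -0.30 and -0.88 (adjusted p = 0.704, 0.709, 0.704 and 0.697 from edgeR). The part of feeding state and zonation in the differences of the members was not tested.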

How the data were processed

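RNA of 8 livers was sequenced from stranded total RNA libraries. The authors deposited raw read counts per gene without normalization, aligned with STAR to GRCm38 per the labels. The counted strand and the GENCODE release are not given in the sources used here. Identifiers were matched without their version to GENCODE M21, which left 259 of 49585 without a symbol. All columns matched a sample (0 left over). Counts were tested with edgeR 4.0.16 under R 4.3.3 (quasi-likelihood F test, TMM, filterByExpr by genotype, all 8 livers in 1 fit), and p-values were adjusted by Benjamini-Hochberg. The cutoff is that of the study's methods. Log2 CPM for profiles and permutation used a prior count of 2. Figures were drawn with matplotlib 3.10.9. The method was tried beforehand on simulated counts, for LP245/+ against LP+/+ only, with log2 changes of 0, 1.5, 2 or 3 in size. Sizes between 0 and 1.5, where those fitted for the members lie, were not simulated. What the method would miss among the members is therefore not known. Where nothing says that livers of a genotype differ in litter or day, p-values measure only the spread between them. Intervals cover that spread and counting error.

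The members and lists were chosen with earlier results of these data known. Named genes are the 9 members, the 2 genes of each list with the smallest p over the 3 genotypes, the 2 closest profiles of each member and Trp53. The result of 1 of these genes is not reported here. Dbp, Arntl, Per1 and the other clock genes named beside the colour plot, with Apex2, Hcn3 and Fbp2, were added after values were seen. Alternatives were DESeq2 1.42.0, its size factors, library totals, no filter or a minimum of 10 counts in each liver, fits of the 2 genotypes compared alone, no fold threshold, a replicate block, a covariate for the series, and each liver left out. Motifs were searched in RefSeq windows, matched by symbol for all 9 members. Same-numbered livers did not deviate together (correlations of deviations from -0.0822 to 0.0339), so the livers were analysed as unpaired.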

Additional observations from a re-analysis of the deposited data

Results flagged for a closer look

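Pfkfb1 was marked for a closer look because the LP245/+ and LPfl/+ livers lay on opposite sides of the LP+/+ mean. LP245/+ replicate 2, at 36.7 CPM, still lay under LP+/+ replicate 2, at 37.8 CPM. The share of all genes that meet this rule was not counted. Each of the 3 LP245/+ livers was above the LP+/+ mean of 32.9 CPM and each of the 2 LPfl/+ livers was below it. The difference between the genotypes was 0.87 on the log2 scale (edgeR adjusted p = 0.362), and LP245/+ and LPfl/+ share no series of library numbers.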

How the results depend on the processing

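Of 477 recomputed log2 fold changes for the 27 member comparisons, 420 kept their direction and side of the cutoff, 54 changed sign and 1 came to pass the cutoff. The other 2 are values within a series, which have no test and moved by more than the SD within genotypes. The cause of these shifts was not tested. When the series entered the fit as a covariate, which leaves LP+/+ livers as the only link between LP245/+ and LPfl/+, the members at an unadjusted p under 0.05 numbered 0 in LPfl/+ against LP+/+ and 1 in LP245/+ against LPfl/+. With LP+/+ replicate 1 and LPfl/+ replicate 2 both left out, an alternative chosen after seeing the data, G6pc in LP245/+ against LPfl/+ was -1.37. This was the value that came to pass the cutoff, with a single LPfl/+ liver whose spread was taken from the other genotypes. Each setting without an LPfl/+ liver has that limit. DESeq2 called 1 member over the 3 genotypes (Pfkfb1), and 2 were called without the filter on low counts (Pfkfb1 and Pfkfb3). Shares of all genes, called or at an unadjusted p under 0.05, were counted for the main fit only. The counts in the other settings therefore have no such share to be read against. When each liver was left out in turn, between 1 and 3 members had an unadjusted p under 0.05 in LP245/+ against LP+/+ and between 0 and 1 in LPfl/+ against LP+/+, and between 0 and 1 of the 73 other glucose genes was called in LP245/+ against LPfl/+, that 1 without LP+/+ replicate 1.

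Changes of sign were mostly of small values. In LP245/+ against LP+/+, the covariate gave -0.00 for Pcx and -0.01 for Slc2a2 (also -0.01 within the first series), and both livers left out gave -0.01 for Pcx and -0.02 for Slc2a2. In LPfl/+ against LP+/+, library totals in place of TMM gave 0.01 for Pcx, 0.02 for Gckr, 0.02 for Pfkfb3 and 0.02 for Slc2a2, the covariate and the values within the second series gave 0.03 for Gckr, 0.02 for Pfkfb3 and 0.15 for Slc2a2, and both livers left out gave 0.79 for G6pc, 0.07 for Pcx, 0.02 for Pfkfb3 and 0.16 for Slc2a2. In LP245/+ against LPfl/+, library totals gave -0.01 for Pcx and -0.03 for Gckr, the covariate gave 0.20 for G6pc, -0.17 for Fbp1, -0.06 for Gckr and -0.16 for Slc2a2, and both livers left out gave -0.19 for Pck1, -0.10 for Fbp1, -0.08 for Pcx, -0.01 for Gckr and -0.17 for Slc2a2. The values within the second series that kept their sign but moved were -0.76 for G6pc and -0.25 for Pfkfb1 in LPfl/+ against LP+/+, and the covariate gave the same values.

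With single livers left out, LP245/+ against LP+/+ ranged from -0.09 to 0.07 for Pcx, -0.05 to 0.01 for Gckr, -0.24 to 0.14 for Pklr and -0.00 to 0.12 for Slc2a2. LPfl/+ against LP+/+ ranged from -1.55 to 0.04 for Pck1, -0.70 to 0.38 for G6pc, -0.20 to 0.07 for Pcx, -0.23 to 0.18 for Pfkfb3 and -0.39 to 0.23 for Slc2a2. LP245/+ against LPfl/+ ranged from -0.17 to 1.42 for Pck1, -0.08 to 0.34 for Fbp1, -0.07 to 0.21 for Pcx and -0.16 to 0.46 for Slc2a2.

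Same-numbered livers share only a number. With it as a replicate block, 0 members were called in any comparison, 3, 1 and 2 had an unadjusted p under 0.05, and Pfkfb3 in LPfl/+ against LP+/+ turned to 0.13.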
